A study of Mus musculus with 13 samples.

Results

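The genes described here were taken as genes that build or switch on motile cilia, though several are also expressed in cells without them. They were chosen by name: every mouse symbol that starts with Dnah, Dnaic, Dnaaf, Cfap, Rsph or Tekt and goes on with a digit, together with Foxj1, Mcidas, Gmnc, Ccdc39, Ccdc40, Spag6, Spag16, Spag17, Hydin, Spef2, Ak7, Armc4, Zmynd10, Lrrc6 and Tppp3. The rule found 81 genes among the 48795 in the table. The rule uses names alone and no measured value, although it was written with earlier results of these data known.

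RNA was sequenced from the right brain hemisphere, without olfactory bulb and cerebellum, of 13 mice at postnatal day 11. The 5 nlsYAP5SA mice (NexCre +/- YAP5SAnls +/-) carried a constitutively active, nuclear form of YAP1, a transcriptional co-activator of the Hippo pathway, which Cre switches on in cells of the NEX (Neurod6) lineage, mainly excitatory neurons. The 5 control mice (NexCre -/- YAP5SAnls +/-) were littermates that carried the same silent transgene without Cre, and 3 C57BL/6 mice of the same age were not littermates and carried neither. The YAP5SA mice were on a C57BL/6J background. The labels do not say which of the 2 matings each littermate came from, and Cre sits in the Neurod6 gene, so nlsYAP5SA mice also have 1 altered Neurod6 allele while the controls do not.

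Motile cilia beat by means of dynein motors that slide the microtubule doublets of the axoneme past each other. In the brain they cover ependymal cells, the epithelium that lines the ventricles and moves cerebrospinal fluid. Ependymal cells arise from radial glia and grow their tufts of cilia in the first postnatal weeks, under the geminin-like regulators Gmnc and Mcidas and the forkhead factor Foxj1. Epithelial cells of the choroid plexus also carry cilia, and several of the genes below are expressed in cells without motile cilia.

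Totals ranged from 20871566 to 25524349 estimated counts per mouse and overlapped between the groups. Levels are given as CPM, a gene's reads as a share of the library scaled to a fixed total, and levels of different genes are compared per kilobase of exon. Calls were made with edgeR's quasi-likelihood test on all genes that passed the count filter, where the p adjusted by Benjamini-Hochberg was 0.05 or less. Neurod6 ranged from 38.9 to 56.8 CPM in the nlsYAP5SA mice and from 91.5 to 110 CPM in the controls (log2 fold change −0.98, adjusted p = 2.65e-05). Yap1, whose reads cannot be split here between the mouse gene and the transgene, differed by 0.23 on the log2 scale (adjusted p = 0.036). Transcripts of 4 Y-linked genes were present in 5 of 5 control, 2 of 5 nlsYAP5SA (mice 3 and 4) and 2 of 3 C57BL/6 mice, so the groups differ in sex as well as genotype. The choroid plexus transcript Ttr also split the mice within each group, as given below.

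Motile cilia genes were a low part of the hemisphere's RNA. The 81 genes summed to between 375 and 445 CPM per mouse, and the median gene had a mean of 2.18 CPM. A mean of 1 CPM or less was seen for 24 of them, and a mean above 10 CPM for 10. Cfap36 had the highest mean, 78.6 CPM over all mice. Per kilobase, Cfap36 reached 28.6 CPM and Tppp3, a tubulin polymerization factor, 17.5 CPM, whereas Foxj1 had 3.84 CPM and Hydin, a large protein of the central pair, 0.122 CPM. The count filter kept 71 of the 81 genes in each comparison. Cfap97d1, Cfap221, Cfap73, Cfap99, Dnah2os, Spag6, Rsph14, Rsph6a, Tekt3 and Mcidas did not pass it in nlsYAP5SA against control and were not tested there.

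The first question was whether active YAP1 in the NEX lineage went with a change in these genes. In nlsYAP5SA mice, 9 motile cilia genes were higher than in controls and 0 were lower. The 9 were Foxj1, Rsph4a, Cfap43, Dnah9, Cfap70, Spag17, Ak7, Cfap44 and Dnah6, with fitted rises between 1.43-fold and 1.86-fold. The 9 are 12.7% of the 71 tested, where 7.36% of all 16315 genes tested were called higher and 3.44% lower. The fitted log2 fold change was above 0 for 57 of the 71 genes (80.3%, against 48.7% of all genes), and its median was 0.29 against −0.01 for all genes. At an unadjusted p of 0.05 or less stood 24 of the 71 (33.8%, against 24.4% of all genes). In 8 of the 71 every nlsYAP5SA value lay above every control value, which was so for 6.5% of all genes, and in 0 of the 71 every value lay below (3.57% of all genes). These 8 were 7 of the called genes, without Ak7 and Cfap44, and Cfap299, which was not called (adjusted p = 0.0845). Foxj1, Rsph4a, Cfap43 and Dnah9 stayed called in all 10 fits that each dropped 1 mouse. The other 5 lost their call without 4 (Cfap70, Spag17), 6 (Cfap44) or 7 (Dnah6, Ak7) of the 10 mice, with adjusted p of at most 0.0899. These 5 also lost it with Ttr as a covariate, and all 9 lost it with Y-linked genes as a covariate, as given below. In bulk tissue, more ciliated cells, more RNA per ciliated cell and another make-up of the tissue cannot be told apart. The paper reports tumours beside the ependymal layer of nlsYAP5SA mice, destruction of that layer and a poorly formed hippocampus. Those images are from ages other than the one sequenced, and their bearing on these genes was not tested.

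**Figure D1:**
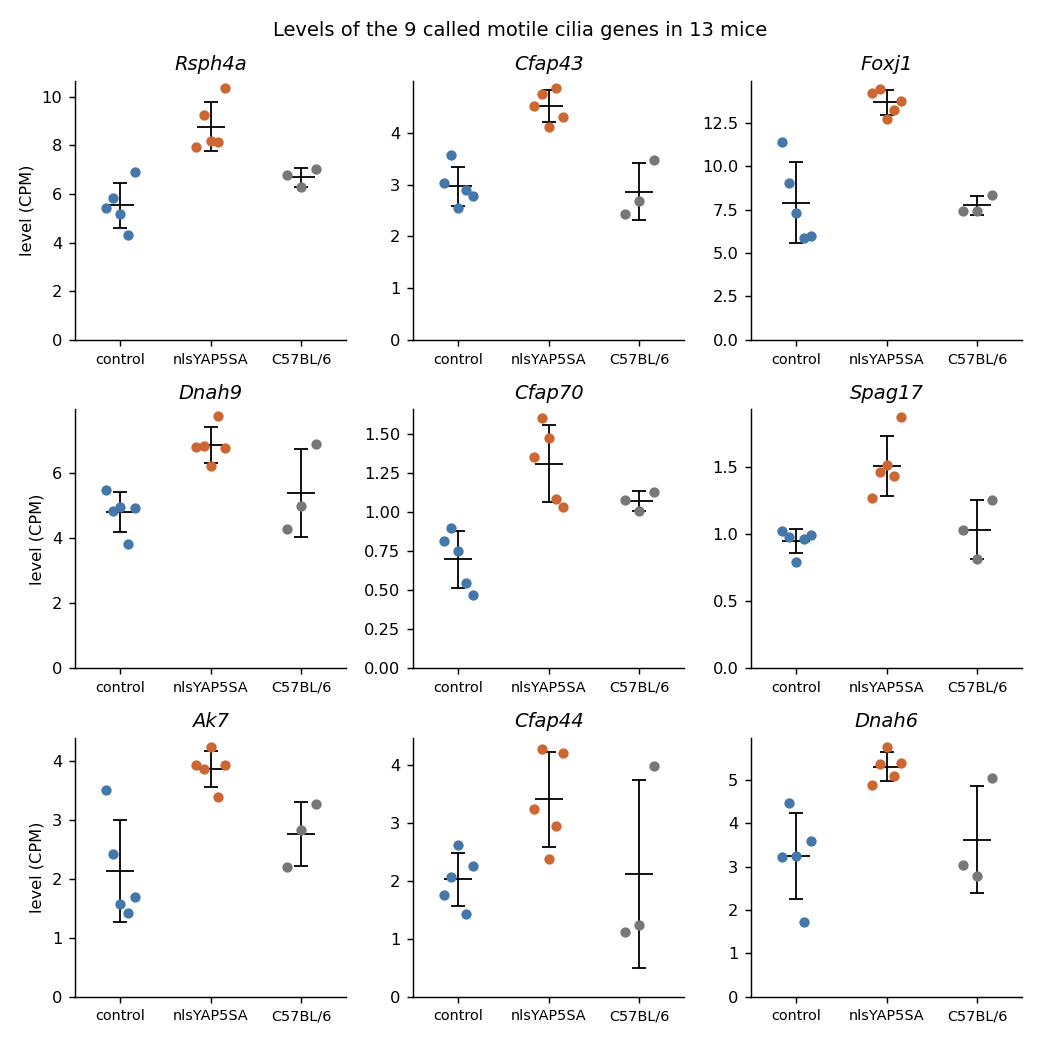
Levels in CPM of the 9 called genes in the 5 control, 5 nlsYAP5SA and 3 C57BL/6 mice, 1 point per mouse, with the group mean and SD as black bars, on axes that start at 0. For Foxj1 the nlsYAP5SA mice sit between 12.7 and 14.5 CPM and all controls at 11.4 CPM or less, and for Ak7 and Cfap44 the groups overlap.

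Among the regulators, Foxj1, the forkhead factor that turns on the motile cilia program, rose. Its values were 11.4, 9.0, 7.30, 5.84 and 6.00 CPM in the controls, 14.2, 14.5, 12.7, 13.2 and 13.8 CPM in the nlsYAP5SA mice, and 7.44, 7.43 and 8.36 CPM in the C57BL/6 mice. All 5 nlsYAP5SA mice were above all 8 others, with a narrower spread than the controls. The fold change was 1.72 (log2 0.78, SE 0.16, adjusted p = 0.00773, edgeR), and the counts behind it ran from 127 to 314 reads per mouse. Foxj1 lies at chr11:116330704-116335399 on the minus strand of GRCm38.

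Gmnc, which acts upstream of Foxj1, had 0.697 ± 0.22 CPM in controls and 0.799 ± 0.18 CPM in nlsYAP5SA mice (SD, n = 5 each), and its groups overlapped. Its log2 fold change of 0.19 (SE 0.26, adjusted p = 0.712, edgeR) did not pass the test. Mcidas, which drives centriole multiplication in multiciliated cells, had between 0 and 10 counts per mouse and did not pass the count filter. DESeq2, run on unfiltered genes, gave it a log2 change of −0.33 with a wide error (SE 0.90, adjusted p = 0.894). The 95% interval of the Gmnc change, −0.32 to 0.70 on the log2 scale, includes changes of the size seen for Rsph4a and Cfap43 below.

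Of 15 other regulators of multiciliation that are not in the name rule, 13 were tested and 2 rose: Myb (log2 0.64, adjusted p = 0.0436) and Deup1, a component of the deuterosome on which new centrioles form (log2 0.93, adjusted p = 0.0367). Deup1 ranged from 0.459 to 0.941 CPM in controls and from 0.814 to 1.55 CPM in nlsYAP5SA mice, so these values overlap. The 2 are 15.4% of the 13, against 7.36% of all genes, and each gene weighs much in so short a list. The median log2 fold change of the 13 was 0.07, and 0 of them fell.

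Outer dynein arms generate most of the power of the beat. Of their 5 heavy chains 1 rose, Dnah9 (20%, against 7.36% of all genes called higher). Dnah9 had 5.48, 4.81, 4.96, 3.82 and 4.91 CPM in the controls and 6.78, 6.83, 6.20, 7.74 and 6.74 CPM in the nlsYAP5SA mice. The ranges do not overlap, and the fold change was 1.43 (log2 0.51, SE 0.11, adjusted p = 0.00808, edgeR). C57BL/6 mouse 3, at 6.86 CPM, was as high as the nlsYAP5SA mice. Dnah5, its partner along the axoneme with the highest mean CPM of the 5, ran from 4.95 to 8.46 CPM in controls and from 4.94 to 9.61 CPM in nlsYAP5SA mice (log2 0.05, adjusted p = 0.895). Dnah11 had a log2 fold change of 0.97 with a wide error (SE 0.30, adjusted p = 0.060) and was not called. Dnah17 and Dnah8, best known from sperm, were not called either.

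Inner dynein arms shape the waveform, and 1 of their 10 heavy chains was called (10%, near the 7.36% of all genes called higher). Dnah6 had 3.23, 4.46, 3.25, 1.72 and 3.59 CPM in the controls and 4.88, 5.37, 5.76, 5.09 and 5.39 CPM in the nlsYAP5SA mice. No control reached the lowest nlsYAP5SA mouse (log2 0.70, SE 0.19, adjusted p = 0.0323, edgeR). Control 4 was the lowest of all 13 mice, and C57BL/6 mouse 3, at 5.05 CPM, lay among the nlsYAP5SA values. Dnah2, which had the highest mean CPM of the 10 but not the highest per kilobase, had overlapping ranges (log2 0.03, adjusted p = 0.935). Dnah7a, Dnah7b and Dnah7c are near-identical copies between which the counting could split reads, so their separate values are uncertain, and they ranged from −0.07 to 0.25 on the log2 scale without a call. The strand setting of the counting is not given in the sources used here, so Dnah2 reads cannot be separated from those of the antisense transcript Dnah2os.

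Radial spokes carry signals from the central pair to the dyneins. Rsph4a, a protein of the spoke head, rose: the controls had 5.44, 5.83, 5.17, 4.32 and 6.90 CPM and the nlsYAP5SA mice 7.96, 9.28, 8.19, 8.13 and 10.4 CPM. The ranges do not overlap (fold change 1.59, log2 0.67, SE 0.13, adjusted p = 0.0042, edgeR), and the C57BL/6 mice, with 6.77, 6.28 and 7.03 CPM, lay between them or among the upper controls. Rsph4a had 103 to 221 counts per mouse and lies at chr10:33905111-33916021. The other 5 tested radial spoke genes were not called, so 1 of 6 was called higher (16.7%, against 7.36% of all genes). Rsph1, also of the spoke head, had a log2 fold change of 0.38 (adjusted p = 0.207), and Rsph3b, with the highest mean CPM of the role, one of 0.07 (adjusted p = 0.596); Rsph3a and Rsph3b are close copies, and the division of reads between them is uncertain.

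The central pair of microtubules regulates the beat. Spag17, one of its projection proteins, had 1.02, 0.979, 0.792, 0.966 and 0.992 CPM in the controls and 1.27, 1.46, 1.52, 1.43 and 1.87 CPM in the nlsYAP5SA mice (log2 0.66, SE 0.17, adjusted p = 0.0231, edgeR). Every nlsYAP5SA mouse was above every control, on 19 to 40 counts in each of these 10 mice. The opposite-strand neighbour Wdr3 overlaps Spag17 and had a log2 fold change of 0.0048 (SE 0.07). Of the 4 tested genes of this role 1 was called higher (25%, against 7.36% of all genes). All 4 had fitted changes above 0 (48.7% of all genes did), with a median of 0.58. Hydin had 1.85 ± 0.52 CPM in controls and 2.74 ± 0.76 CPM in nlsYAP5SA mice (SD, n = 5 each), and its log2 fold change of 0.56 (adjusted p = 0.172) did not pass.

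Of the 31 cilia and flagella associated (Cfap) genes, 27 were tested, 3 rose (11.1%, against 7.36% of all genes) and 0 fell (3.44% of all genes), and the median log2 fold change was 0.30. Cfap43, which with Cfap44 helps to tether inner arm dyneins, had 3.03, 3.56, 2.54, 2.90 and 2.79 CPM in the controls and 4.52, 4.76, 4.12, 4.87 and 4.31 CPM in the nlsYAP5SA mice. The ranges do not overlap (fold change 1.52, log2 0.60, SE 0.11, adjusted p = 0.00468, edgeR). Gsto1 on the opposite strand overlaps Cfap43 and had 31.2 ± 2.45 CPM in controls and 30.6 ± 1.58 CPM in nlsYAP5SA mice (SD, n = 5 each; log2 −0.03, adjusted p = 0.826). Another gene there, Gsto2, had 0.441 ± 0.094 CPM in controls and 0.199 ± 0.077 CPM in nlsYAP5SA mice (SD, n = 5 each) and did not pass the count filter. Without a filter edgeR gave Gsto2 a log2 change of −1.13 (SE 0.38, adjusted p = 0.109). Cfap70, which binds near the outer arms, had 0.818, 0.900, 0.750, 0.546 and 0.472 CPM in the controls and 1.36, 1.60, 1.47, 1.09 and 1.03 CPM in the nlsYAP5SA mice. The ranges do not overlap (log2 0.89, SE 0.22, adjusted p = 0.0222, edgeR), though the counts were only 10 to 34 per mouse.

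Cfap44 had 1.76, 2.07, 2.63, 1.43 and 2.27 CPM in the controls and 3.25, 4.28, 2.38, 2.96 and 4.22 CPM in the nlsYAP5SA mice (log2 0.75, SE 0.20, adjusted p = 0.0312, edgeR). nlsYAP5SA mouse 3 fell among the controls. The C57BL/6 mice spread from 1.12 and 1.25 to 4.0 CPM, wider than either other group. Cfap36 had a log2 fold change of 0.01 (SE 0.05, adjusted p = 0.920), the smallest SE of the 71. Cfap20 and Cfap298, also at over 10 CPM, had changes of −0.06 and −0.14 and were not called.

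Ak7, an adenylate kinase of motile cilia, had 3.52, 2.43, 1.58, 1.43 and 1.70 CPM in the controls and 3.93, 3.86, 4.25, 3.39 and 3.93 CPM in the nlsYAP5SA mice. Control 1 lay above the lowest nlsYAP5SA mouse, and the fold change was 1.80 (log2 0.85, SE 0.22, adjusted p = 0.0271, edgeR). Tppp3, in contrast, had 26.2 to 48.2 CPM in controls and 23.5 to 32.5 CPM in nlsYAP5SA mice (log2 −0.26, SE 0.16, adjusted p = 0.346) and did not pass the test.

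The remaining roles held no called gene, where 7.36% of all genes were called higher and 3.44% lower. Of the 6 dynein arm assembly factors, Dnaaf1 had a log2 fold change of 0.93 (SE 0.28, adjusted p = 0.0532) and Dnaaf2, with the highest mean CPM, one of −0.07 (adjusted p = 0.770). The 3 intermediate chain and docking genes ranged from −0.14 for Armc4 to 0.42 for Dnaic2, with Dnaic1 at 0.15 (adjusted p = 0.639). The axonemal ruler proteins Ccdc39 and Ccdc40, which set the spacing of dyneins and spokes, had 0.09 (adjusted p = 0.699) and 0.48 (adjusted p = 0.104). Among the 4 tested tektins, filaments inside the doublets, Tekt4 had the highest estimate (log2 1.0, SE 0.35, adjusted p = 0.0944) and Tekt5 the most reads (log2 −0.12, adjusted p = 0.485).

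**Figure D2:**
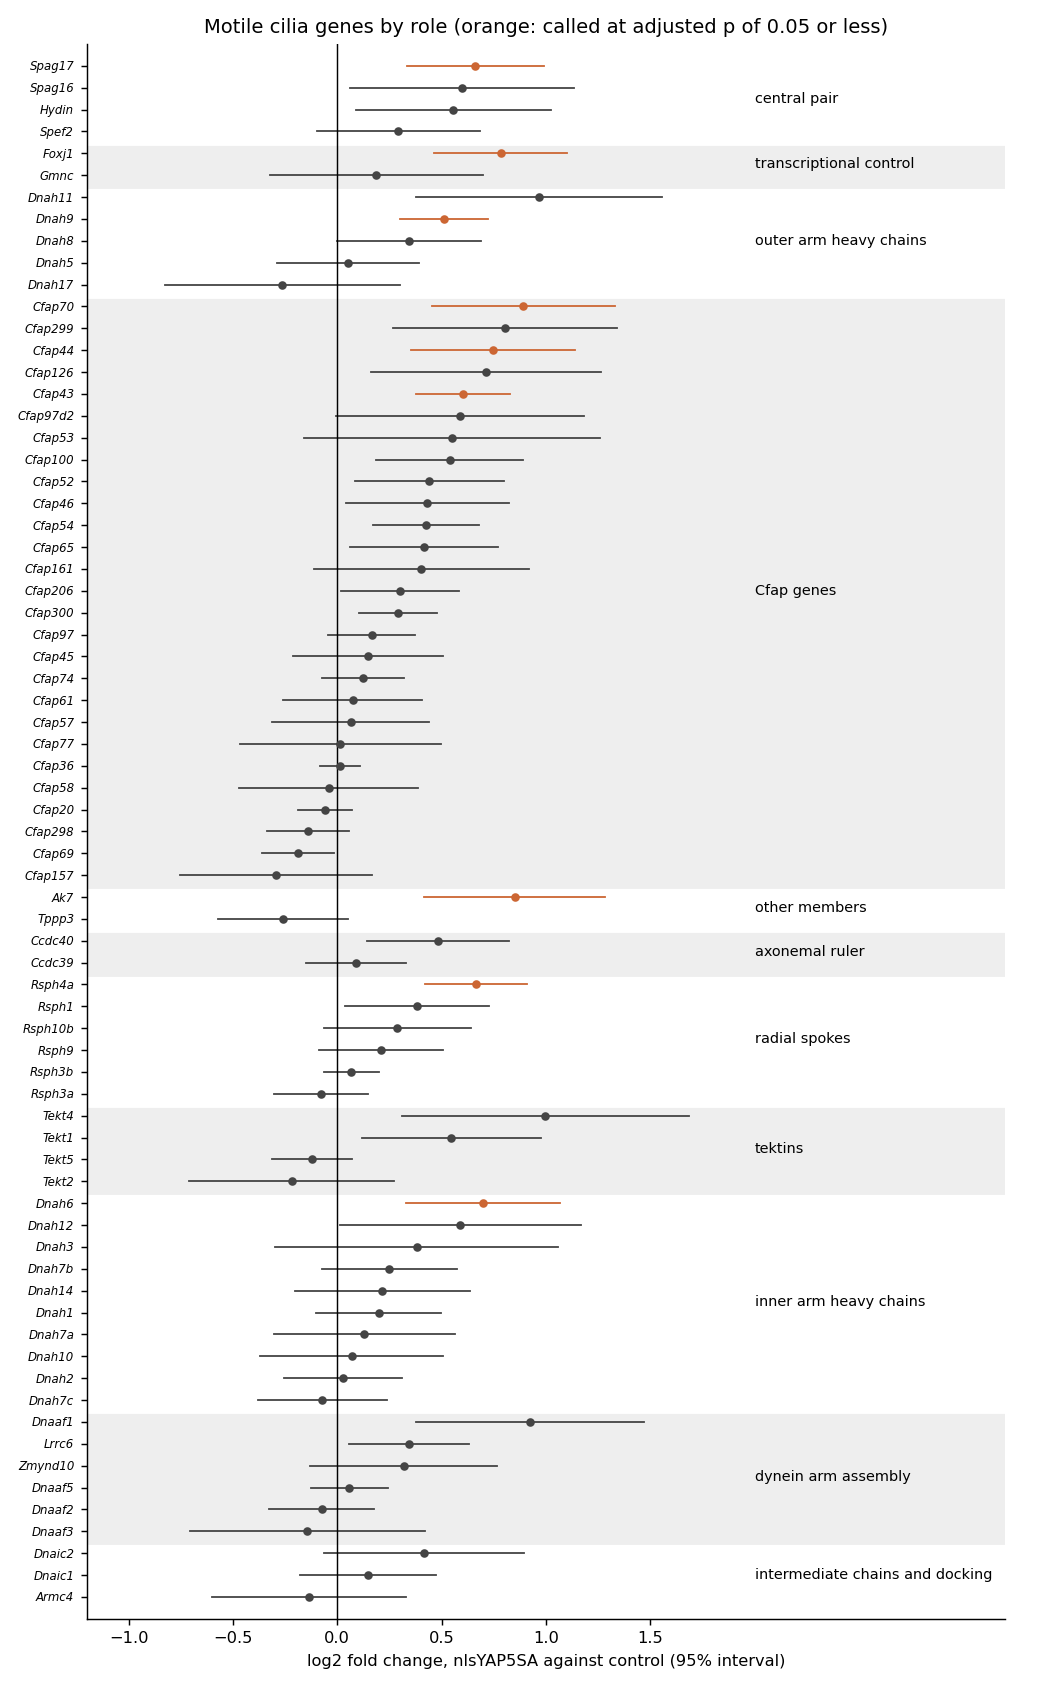
Log2 fold change of nlsYAP5SA against control with its 95% interval for the 71 tested genes, grouped by role, with the 9 called genes in orange. Of the 71 estimates 57 lie above 0, and the called genes fall in 7 of the roles.

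The same mice were compared gene by gene to see how the 81 genes varied together. Over the 73 genes kept in a filter on all 13 mice, the Pearson correlation of log2 CPM between pairs of genes had a median of 0.18 over 2628 pairs and ran from −0.87 to 0.95. The correlation with Foxj1 had a median of 0.46 and was above 0 for 60 of 72 genes. It was highest for Ak7 (r = 0.90), Cfap206 (r = 0.89) and Cfap43 (r = 0.87) and lowest for Cfap69 (r = −0.43). The 13 points are whole libraries that share their depth and their groups, so these values describe the set and test nothing.

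The summed level of the 81 genes shows the same lean with overlap. The nlsYAP5SA mice lay between 432 and 445 CPM, the controls between 375 and 439 CPM and the C57BL/6 mice between 396 and 417 CPM. Control 1, at 439 CPM, was inside the nlsYAP5SA range, and control 4 was the lowest. Outside the set, the genes with the highest mean correlation to its members over the 13 mice were Lrrc23, a radial spoke protein (mean r = 0.38), Got1l1 (0.38), the dynein light chain Dynlrb2 (0.37), Calml4 (0.37) and Cmtm7 (0.37).

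**Figure D3:**
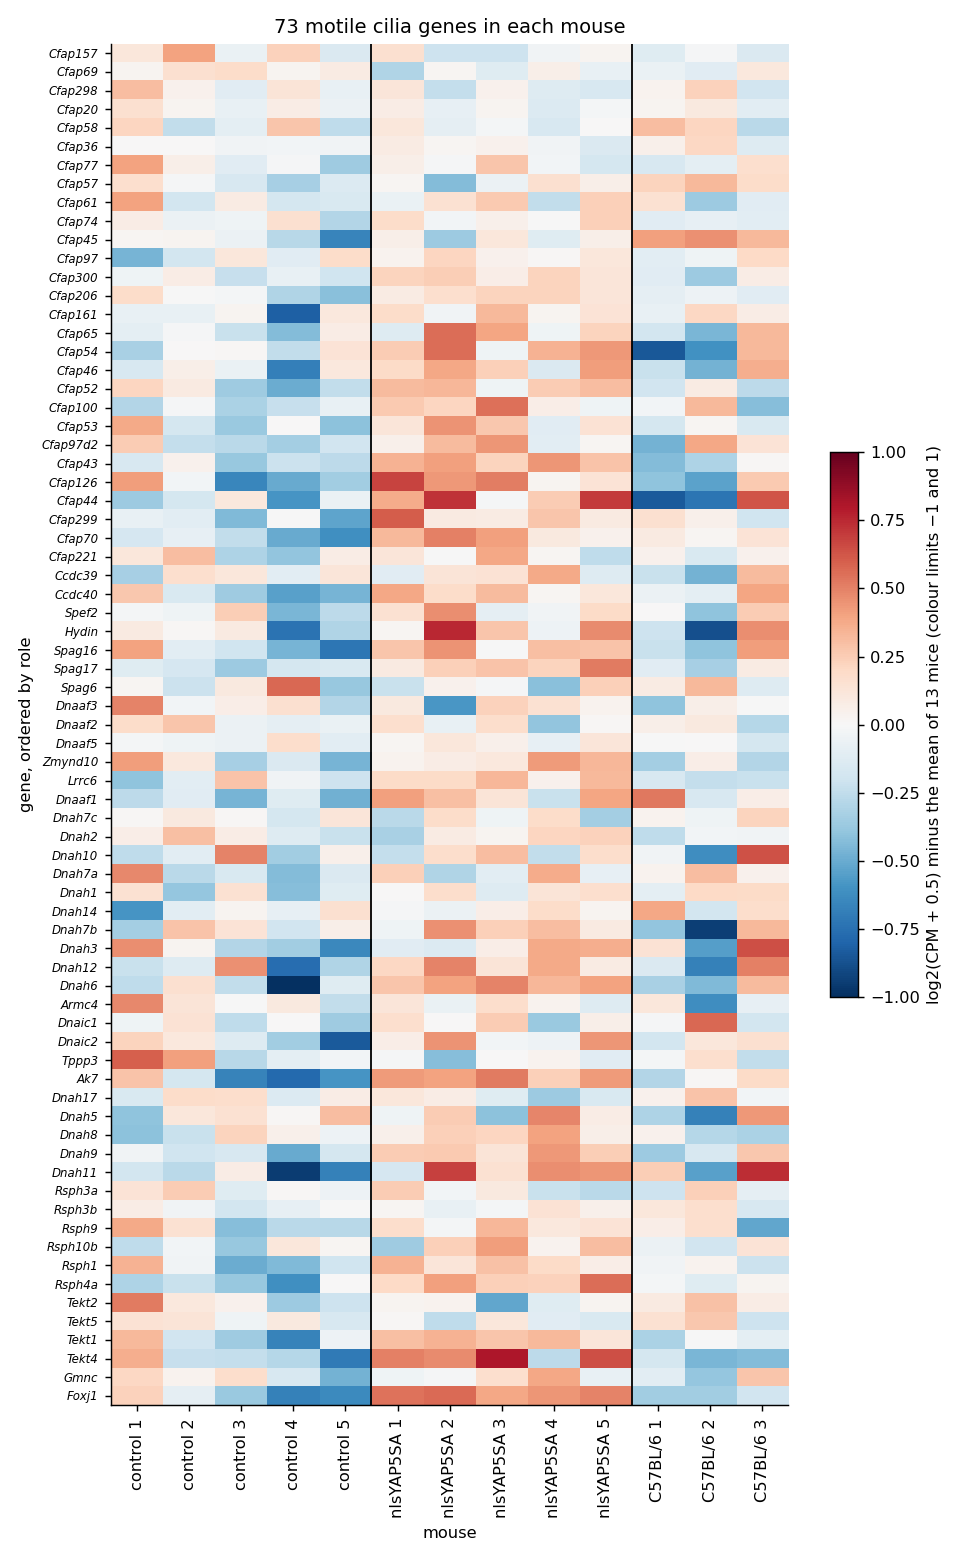
Each of the 73 genes kept over all 13 mice (rows, ordered by role) in each mouse (columns), as log2(CPM + 0.5) minus the mean of the 13 mice, in red above and blue below the mean. The columns of the nlsYAP5SA mice are red for most genes, controls 4 and 5 are blue for most, and genes such as Cfap36, Cfap20 and Rsph3b stay near 0 in every mouse.

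Other gene lists were tallied in the same fit. Of 38 further motile cilia genes outside the name rule, 32 were tested and 3 rose: Enkur (log2 0.57, adjusted p = 0.00981), the kinesin Kif9 (log2 0.63, adjusted p = 0.00173) and Ulk4 (log2 0.44, adjusted p = 0.0380). The 3 are 9.38% of the 32, near the 7.36% of all genes called higher. Their median was 0.25, and 0 fell. Of 30 genes of intraflagellar transport and the ciliary membrane, which non-motile primary cilia also use, 1 rose (3.33%, against 7.36% of all genes), Wdr35 (log2 0.18, adjusted p = 0.0290), and the median was 0.05.

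Ependymal genes outside the axoneme, all shared with astrocytes or other glia, moved in both directions. Vim, an intermediate filament (log2 1.34), Ezr, a membrane linker of apical surfaces (log2 0.94), and the gap junction gene Gja1 (log2 0.36) rose, and the calcium-binding S100b fell by 0.35 on the log2 scale, out of 6 tested. Over all genes, 7.36% were called higher and 3.44% lower, and in lists as short as these 1 gene is 12.5% or more. Of 6 astrocyte markers 2 rose, Gfap (log2 2.06) and Slc1a3 (log2 0.31), and of 6 microglial markers 5 rose, with a median of 0.72. Of 8 excitatory neuron markers 1 was called, Neurod6, which fell, and the median of the 8 was −0.10. Neurod6 carries the Cre insertion in nlsYAP5SA mice, so its fall cannot be told apart from the altered allele. Of 6 oligodendrocyte markers Olig1 fell. Cell types other than ependyma also differed in their markers between these groups, and their part in the cilia result was not tested.

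The choroid plexus can enter a hemisphere sample in varying amounts. Ttr, its most abundant transcript, had 217, 0.822, 1.25, 2.14 and 129 CPM in the controls, 258, 276, 138, 0.783 and 55.2 CPM in the nlsYAP5SA mice and 1.52, 158 and 239 CPM in the C57BL/6 mice. Its log2 fold change was 1.04 (SE 1.30, adjusted p = 0.674, edgeR). It was above 10 CPM in 2 of 5 controls and 4 of 5 nlsYAP5SA mice. Of 12 choroid plexus markers, 2 rose (16.7%, against 7.36% of all genes), Folr1 by log2 2.20 and F5 by log2 1.43. The median of the 12 was 0.69, and the summed list ran from 19.7 to 249 CPM in controls and from 23.7 to 332 CPM in nlsYAP5SA mice. Among the mice with Ttr of 10 CPM or less, Foxj1 was 13.2 CPM in the 1 nlsYAP5SA mouse and 5.84 to 9.0 CPM in the 3 controls. Among those above 10 CPM it was 12.7 to 14.5 CPM in 4 nlsYAP5SA mice and 6.00 and 11.4 CPM in 2 controls. With the log2 level of Ttr as a covariate, Foxj1, Rsph4a, Cfap43 and Dnah9 stayed called and the other 5 did not, with the 9 fitted log2 fold changes between 0.51 and 0.84.

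**Figure D4:**
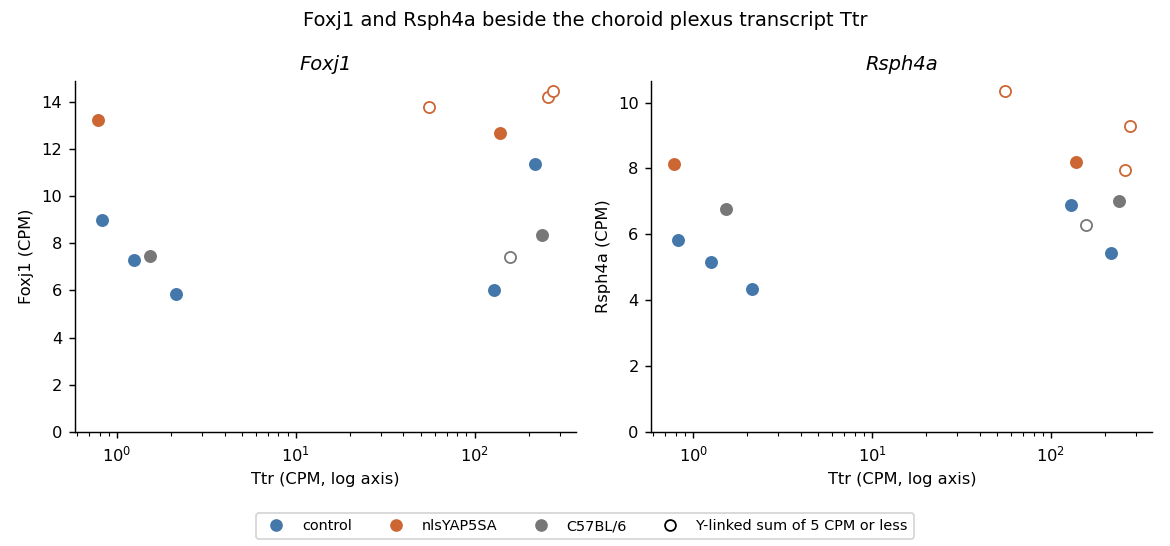
Foxj1 and Rsph4a (CPM) against Ttr (CPM, log axis) in the 13 mice, coloured by group, with open circles for mice without Y-linked transcripts. In both panels the 5 nlsYAP5SA mice lie above all other mice, both at a Ttr of 0.783 CPM and at 55.2 CPM or more.

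None of the 9 calls held in the fits that took the unequal sex of the groups into account. With the Y-linked level as a covariate, 0 of the 71 genes were called by edgeR, 11 had an unadjusted p of 0.05 or less (15.5%, near the 13.1% of all genes), and the calls over all genes fell to 486 higher (2.98%) and 68 lower (0.417%). The 9 fitted log2 fold changes then lay between 0.43 and 0.85, with adjusted p between 0.0593 (Cfap43) and 0.497 (Cfap44). Among the 7 mice with Y-linked transcripts alone, 5 controls and 2 nlsYAP5SA mice, 0 of 74 tested genes were called where 1.82% of all 16918 genes were called higher and 0.154% lower. There 10 of the 74 had an unadjusted p of 0.05 or less (13.5%, against 10.7% of all genes), and the 9 log2 fold changes lay between 0.39 and 0.86, with adjusted p between 0.158 and 0.693. Foxj1 had 12.7 and 13.2 CPM in those 2 nlsYAP5SA mice and at most 11.4 CPM in a control. The estimate for Cfap44 moved most, from 0.75 to 0.39 on the log2 scale, and the others were 0.53 or more, none of them past the test. The median log2 fold change of the tested genes was 0.28 with the covariate and 0.27 among the 7 mice, against 0.29 in the fit without either. In these fits genotype and sex can be told apart only by the 2 nlsYAP5SA mice with Y-linked transcripts.

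**Figure D5:**
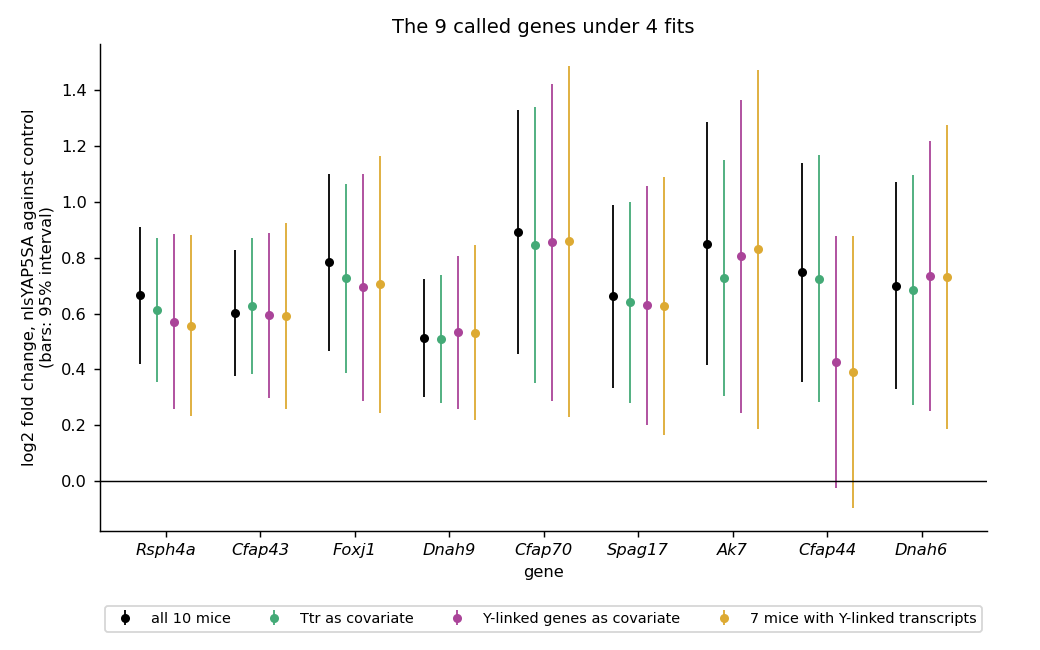
Log2 fold change of nlsYAP5SA against control for the 9 called genes with 95% intervals, from all 10 mice (black), with Ttr as a covariate (green), with Y-linked genes as a covariate (purple), and from the 7 mice with Y-linked transcripts (yellow). All estimates are above 0, and the Cfap44 intervals of the purple and yellow fits reach 0. No estimate of the purple and yellow fits passed the test after adjustment.

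Promoters of these genes were searched for 3 short motifs, because RFX and forkhead factors drive motile cilia genes and TEAD factors carry YAP1 to DNA. A RefSeq window (build GRCm38.p6) was at hand for 64 of the 81 genes, in 72 windows, and the 250 bases before the start were read on both strands. GTTGCC, a half-site of the RFX X-box searched in this exact form only, was in 23 of the 72 windows (31.9%) and in 10.4% of all 32851 windows. GTAAACA, a forkhead motif, was in 5 (6.94%, against 3.17% of all windows). GGAATG, a TEAD motif, was in 8 (11.1%, against 12.6%). Matches of different motifs may overlap by a few letters, and a match is a description and not a binding site.

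The RFX half-site is shown for 1 or 2 genes of several roles, with the half-site in capitals and up to 10 bases on each side, read 5′ to 3′ on the strand that carries it. In order these are Cfap20 (chr8:95434948-95434973, plus strand), Cfap44 (chr16:44394770-44394795, minus), Hydin (chr8:110266954-110266976, minus), Dnaaf2 (chr12:69198430-69198448, plus), Dnaic2 (chr11:114727383-114727408, minus) and Tekt1 (chr11:72361883-72361907, minus).
Cfap20: gcggaacttgGTTGCCaagggactat
Cfap44: gtttactgcgGTTGCCatagcaacgt
Hydin: accatctGTTGCCacagcaaccg
Dnaaf2: tttGTTGCCatagtaacgc
Dnaic2: gagtttaccaGTTGCCtagcaaccct
Tekt1: cgtccgtccgGTTGCCatagagacc

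Of the 6 genes with these sites, Cfap44 was called in nlsYAP5SA against control and the other 5 were not. They are examples from the 21 genes with the half-site. Of the tested genes of the set 12.7% were called higher, and of all genes 7.36%. Of the 9 called genes, 7 had a window, and their 250 bases held the RFX half-site in Cfap44 (2 matches), the forkhead motif in Cfap43 and Ak7 (1 match each) and the TEAD motif in Cfap44 (1 match). The windows of Cfap70, Spag17, Dnah6 and Dnah9 held no exact match of the 3. Near variants were not counted, such as gttgct in the Dnah6 window, so these genes may still hold sites of these kinds. The 3 promoters with a match are printed below in the direction of the gene with the motifs in capitals: Cfap44 (chr16:44394549-44394798, plus strand), Cfap43 (chr19:47837362-47837611, minus strand) and Ak7 (chr12:105705732-105705981, plus strand).
Cfap44: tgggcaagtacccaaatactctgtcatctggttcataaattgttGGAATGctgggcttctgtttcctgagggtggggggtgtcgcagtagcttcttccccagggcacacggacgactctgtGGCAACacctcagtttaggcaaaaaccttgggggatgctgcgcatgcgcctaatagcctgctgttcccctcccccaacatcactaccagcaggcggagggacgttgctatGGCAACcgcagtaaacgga
Cfap43: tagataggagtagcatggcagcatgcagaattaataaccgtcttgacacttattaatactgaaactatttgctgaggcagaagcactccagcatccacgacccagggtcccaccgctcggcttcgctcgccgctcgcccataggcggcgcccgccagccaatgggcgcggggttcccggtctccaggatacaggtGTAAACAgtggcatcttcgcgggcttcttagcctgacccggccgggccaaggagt
Ak7: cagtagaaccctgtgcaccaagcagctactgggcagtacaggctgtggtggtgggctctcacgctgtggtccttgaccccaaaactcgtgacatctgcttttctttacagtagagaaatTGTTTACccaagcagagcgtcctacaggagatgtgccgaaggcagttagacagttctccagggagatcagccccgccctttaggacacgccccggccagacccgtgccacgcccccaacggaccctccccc

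The 3 C57BL/6 mice show how far these genes vary without either allele. Against the controls, 0 of 71 genes were called by edgeR and 0 by DESeq2, where 0.0484% of all 16546 genes were called higher and 0.121% lower. At an unadjusted p of 0.05 or less stood 4 genes (Cfap45, Cfap57, Cfap70 and Dnaaf1, each higher in C57BL/6), which is 5.63% against 3.78% of all genes. The fitted change was above 0 for 43 of the 71 (60.6%, against 50.7% of all genes), with a median log2 of 0.07. That median turned negative without C57BL/6 mouse 3 (−0.046) or control 4 (−0.011). Every C57BL/6 value lay above every control value in 3 genes (Cfap45, Cfap57 and Cfap70; 1.95% of all genes) and below in 0 (1.39% of all genes). Foxj1 differed by −0.03 on the log2 scale (SE 0.21). The 95% intervals of C57BL/6 against control, from a normal approximation that is narrow for so few mice, reached up to 0.39 for Foxj1, 0.28 for Cfap43 and 0.56 for Rsph4a, each under the change seen in nlsYAP5SA mice. For Ak7, Cfap44, Cfap70 and Dnah6 they included a change of that size, and for Dnah9 (0.50) and Spag17 (0.54) they ended below it.

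Set against the C57BL/6 mice in place of the controls, the nlsYAP5SA mice had 2 of 71 genes called higher (2.82%, against 4.16% of all genes) and 0 lower (2.22%; 6.38% in either direction), with a median log2 fold change of 0.19. The fitted change was above 0 for 51 of the 71 (71.8%, against 47.9% of all genes), and 17 reached 0.05 or less before adjustment (23.9%, against 21% of all genes). Every nlsYAP5SA value lay above every C57BL/6 value in 11 genes (8.71% of all genes) and below in 3 (Cfap45, Cfap57 and Tekt2; 6.47% of all genes). Foxj1 differed by 0.80 (SE 0.09, adjusted p = 0.0012, edgeR) and Cfap43 by 0.64 (SE 0.15, adjusted p = 0.0353). Foxj1 stayed called without each of the 8 mice in turn. With the replicate number as a block neither was called (adjusted p = 0.116 for Foxj1 and 0.323 for Cfap43), and calls over all genes fell to 0.27% higher and 0.012% lower. Cfap43 also lost its call with Y-linked genes as a covariate (adjusted p = 0.0603) and without 6 of the 8 mice (nlsYAP5SA 1, 2, 4 or 5, C57BL/6 1 or 2), with adjusted p up to 0.132, and without C57BL/6 mouse 3 the count of called genes rose from 2 to 8, while the share of all genes called rose to 5.84% higher and 4.56% lower. Both comparisons use the same 5 nlsYAP5SA mice. The other 7 called genes had log2 differences to C57BL/6 between 0.27 for Cfap70 and 0.65 for Cfap44, and none passed the test. Cfap70 was higher in C57BL/6 than in every control (1.08, 1.01 and 1.13 CPM), close to nlsYAP5SA mice 4 and 5.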

How the data were processed

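RNA of 13 right hemispheres was made into libraries with an mRNA kit (KAPA mRNA HyperPrep) and sequenced. The values deposited by the authors are estimated counts of each gene in 1 table. Per the labels and the methods, adapters were trimmed with cutadapt 1.5, reads were mapped with STAR to GRCm38 and quantified with RSEM 1.3.0. No normalization was applied before deposit, and 0 columns were left out. RSEM divides reads between similar genes, so close copies are uncertain.

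Estimated counts were rounded to whole numbers. Genes were kept by filterByExpr (minimum count 10, minimum total 15), normalized with TMM and tested two-sided with edgeR 4.0.16 (R 4.3.3) between the 2 groups compared, with Benjamini-Hochberg adjustment over all genes. CPM used TMM over the 13 samples, and log2 CPM a pseudocount of 0.5. For edgeR, the SE is the absolute log2 fold change divided by the square root of the test's F statistic. All 95% intervals take 1.96 SE on each side, a normal approximation that is narrow for so few mice. Alternatives included DESeq2 1.42.0, other filters, covariates and leaving out each mouse. The fit of mice with Y-linked transcripts (sum above 5 CPM) was added after the data were seen. The test was also run on simulated counts, and no result here rests on that run. Positions came from GENCODE M21, and promoters from RefSeq.

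The name rule uses no measured value, but the rule, the roles and the gene lists were all written with earlier results of these data known. Named were Foxj1, Mcidas, Gmnc, called genes, the tested gene of highest mean CPM in each role, Ttr, Yap1 and Neurod6; others named show a count or a contrast and were picked after their values were seen. Depth was 20871566 to 25524349 counts per mouse, and a count of 0 allows up to 3, for counting error only. Mice are separate animals, and per the methods their libraries were pooled and the pool was spread over lanes. No batch of dissection or library preparation is named.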

Additional observations from a re-analysis of the deposited data

Results flagged for a closer look

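Spag17 in control 3 stood apart from the other 4 controls by Dixon's test for an outlying value. It had 0.792 CPM there, and the other controls had 0.966 to 1.02 CPM. Over 48 groups of 5 mice tested, 1 sample stood apart, and chance alone marks about 1 in 20 groups. Without control 3 the adjusted p of Spag17 was 0.0557, past the threshold, as it also was without control 4 (0.0505), control 5 (0.05002) or nlsYAP5SA 5 (0.0752).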

How the results depend on the processing

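In nlsYAP5SA against control, 9 genes were called higher, and 7.36% of all genes. With Y-linked genes as a covariate 0 were called, and 0 among mice with Y-linked transcripts alone, a fit chosen after seeing the data (2.98% and 1.82% of all genes). With Ttr as a covariate 4 were called (6.29% of all genes). An offset for length and GC content gave 13 higher and 1 lower (Cfap69), where 8.93% of all genes were higher and 4.73% lower, and Dnah6 lost its call (adjusted p = 0.0584). The other planned settings gave 7 to 11 higher (3.9% to 7.19% of all genes); Cfap44 lost its call in 1 fit of all 13 mice (adjusted p = 0.160) and with the replicate block (0.0550), and Spag17 without a filter (0.0718) and with the block (0.0827). Leaving out 1 mouse gave 5 to 13 (5.54% to 7.83% of all genes), with 5 without control 4 or 5 or without nlsYAP5SA 2 or 5; the median log2 fold change stayed between 0.21 and 0.32. In nlsYAP5SA against C57BL/6, 2 genes were called higher, where 4.16% of all genes were, 1 with Y-linked genes as a covariate (Foxj1; 3.19% of all genes), and 1 to 8 without 1 mouse: 8 without C57BL/6 mouse 3 (5.84% of all genes), and 1, Foxj1, without nlsYAP5SA 1, 2 or 5 or C57BL/6 1 or 2. The median of C57BL/6 against control, 0.07, ranged from −0.046 (without C57BL/6 mouse 3) to 0.10 without 1 mouse and was −0.011 without control 4.

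The replicate numbers of the labels do not meet the bar for pairing the mice: same-numbered control and nlsYAP5SA mice correlated in their deviations at 0.31, −0.16, −0.31, −0.09 and 0.11, and only number 1 correlated best with its own number. For C57BL/6 and control mice the values were 0.12, −0.02 and 0.49, and numbers 1 and 3 correlated best with their own. With the replicate number as a block, 7 genes were called higher against control (9 without it; 5.74% of all genes) and 0 against C57BL/6 (2 without it; 0.27% of all genes), and the median of C57BL/6 against control was −0.055.

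In nlsYAP5SA against control, 4 named genes with changes near 0 changed sign. Over 5 other settings, 8 named genes changed sign in C57BL/6 against control (Ccdc39, Cfap36, Cfap44, Dnah5, Dnah6, Gmnc, Hydin and Tekt5) and 4 in nlsYAP5SA against C57BL/6 (Dnaaf2, Dnaic1, Rsph3b and Tppp3), and none of these 12 differences was called. The values for nlsYAP5SA against control follow. Cfap36 was −0.0050 with Ttr as a covariate and ranged from −0.0081 to 0.044 without 1 mouse, below 0 without nlsYAP5SA 1 or 3. Dnaaf2 ranged from −0.13 to 0.013 without 1 mouse, above 0 without nlsYAP5SA 4. Dnah2 was −0.013 with the offset and ranged from −0.034 to 0.12 without 1 mouse, below 0 without control 4 or 5 or nlsYAP5SA 4 or 5. Dnah5 was −0.015 with the offset and ranged from −0.073 to 0.16 without 1 mouse, below 0 without control 1 or nlsYAP5SA 4. The cause of these shifts was not tested.

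The number of mice, the low counts of many of these genes and the sex difference between the groups limit the calls. The count filter left 10 genes out of the edgeR test of nlsYAP5SA against control, and all 81 entered the edgeR test without a filter and DESeq2, with 8 and 11 called higher (3.9% and 4.68% of all genes) and 0 lower (1.53% and 2.92%).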
